A study of Mus musculus with 20 samples.

Results

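The genes described here encode 9 proteins that act just below the pre-B cell receptor. They are the adaptors Blnk, Bank1 and Pik3ap1, the kinases Syk, Btk, Lyn, Blk and Prkcb, and the phospholipase Plcg2. They were chosen by name and matched by symbol to mouse Ensembl gene identifiers, which gave 9 of the 56239 genes counted. All 9 were among the 16601 genes tested, which had 10 counts or more in 2 libraries or more. Their RNA was followed in B3 cells, a mouse line derived from a lymphoma and used as a model of pre-B cells, which had been transduced with a retrovirus carrying Ikaros-ERt2. ERt2 is a ligand-binding domain of the estrogen receptor that keeps IKZF1 (Ikaros) out of the nucleus, from which 4-hydroxytamoxifen (4-OHT) releases it. Cells at 0 h carried the construct and received no 4-OHT, and all other cells received 500 nM 4-OHT for 30 min, 1, 2, 6, 12, 15, 18, 21 or 24 h. Each of these 10 time points had 2 replicates. Cells without the construct given 4-OHT were not analysed here, so the effect of nuclear IKZF1 and that of 4-OHT itself cannot be told apart.

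The pre-B cell receptor pairs an immunoglobulin heavy chain with the surrogate light chain and signals through the CD79A and CD79B subunits. Src family kinases such as LYN and BLK phosphorylate these subunits, SYK docks on them and phosphorylates the adaptor BLNK, and BLNK brings BTK and PLCG2 together. PLCG2 then cleaves a membrane lipid into messengers that release calcium and activate protein kinase C beta, the product of Prkcb. PIK3AP1 (BCAP) and BANK1 are further adaptors, which link receptor signaling to phosphoinositide 3-kinase and to LYN and calcium release. In pre-B cells this cascade is known to drive a limited expansion and then differentiation, and BLNK is known as a tumor suppressor in mouse pre-B cells.

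The 20 libraries of chromatin-associated RNA, which enriches for nascent transcripts, held 33296158 to 46868954 counts with a median of 40943260. Replicates of a time point differed more at 12 h and 18 h than elsewhere, where the chi-square between them, per degree of freedom, was 8.85 and 13.4, against 1.24 to 4.28 at the other time points. Of 12 pre-B markers, 10 were above 1 CPM at 0 h, while Rag1 and Rag2 had 0 counts in every library. The summed level of the 12 was 11740 CPM at 0 h and 13660 CPM at 24 h, and ran from 8661 to 16880 CPM over the libraries. Most of this sum was Ebf1, at 9790 CPM at 0 h and 7835 CPM at 24 h, so it says little about the other markers. The surrogate light chain genes Igll1 and Vpreb1 went from 168.6 and 17.56 CPM at 0 h to 0.984 and 0.370 CPM at 24 h. Ebf1, Cd24a and Tcf3 were also lower at 24 h than at 0 h, while Pax5, Cd79a, Cd79b, Il7r and Ighm were higher. The summed level of 6 T cell markers stayed between 0.712 and 2.19 CPM, that of 6 myeloid markers between 0.577 and 1.73 CPM and that of 4 erythroid markers between 0.172 and 0.704 CPM. At 0 h Csf1r was at 1.19 CPM and Trac at 0.836 CPM, while Cd3e, Itgam and Hba-a1 were at 0 CPM. The 3 plasma cell markers summed to 0.298 to 14.3 CPM over the libraries, with means of 0.475 CPM at 0 h and 6.03 CPM at 24 h, of which Jchain made 5.79 CPM, and their part in the results below was not tested. In these bulk samples, a change in which cells are present and a change in RNA per cell cannot be told apart.

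Over the time course, 8 of the 9 genes changed, against 51.9% of all genes tested, and they did so in both directions. Calls against 0 h required more than a 2-fold change together with an adjusted p-value below 0.01, and the count over the time course required the same change at any time point. It was 7 with library totals, where Lyn stayed under 2-fold, and 9 without replicate 2 of 24 h, where Prkcb passed. At 24 h the adaptor Blnk was 20.4-fold above its 0 h level, the kinase Syk 5.84-fold, Bank1 2.34-fold and Lyn 2.03-fold, whereas Pik3ap1 was 3.89-fold and Plcg2 3.48-fold below theirs. Btk fell by 6 h and stood 1.45-fold above that low at 24 h, Blk was called higher at 2 and 6 h, and Prkcb, close to the limit of detection, did not pass the test. Each of these fold changes is a model estimate from counts scaled with edgeR's TMM factors and tested with its quasi-likelihood test, adjusted over all 16601 genes. The spread in this test was estimated over all 20 libraries together. Standard errors and p-values at 12 h and 18 h therefore do not measure the wider spread between replicates there. With only the 4 libraries compared, 2 genes were still called lower and 3 higher at each of these times. Scaled by library totals alone, which puts the median of all genes at -0.27 on the log2 scale at 24 h, Bank1 stood at 0.97 and Lyn at 0.76 on the log2 scale, both under the 2-fold threshold.

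**Figure D1:**
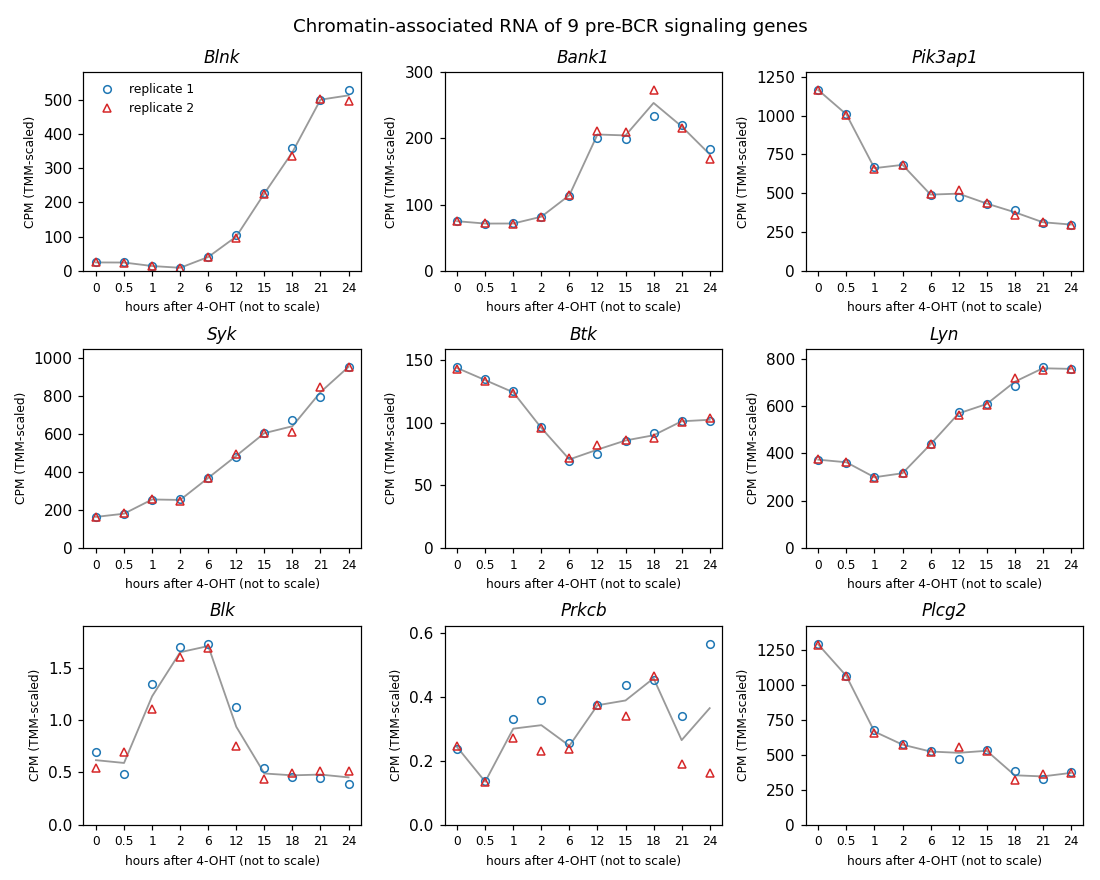
Level of each gene in every library, in CPM (counts scaled to library size) after TMM scaling, against hours after 4-OHT; circles are replicate 1, triangles replicate 2 and the line joins their means. Blnk fell to a mean of 9.44 CPM at 2 h before it rose to 512 CPM at 24 h, whereas Pik3ap1 fell from 1164 CPM to 299.1 CPM.

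Promoter windows of 300 bases, 250 before and 50 after the RefSeq start in GRCm38.p6, were supplied for 7 of the 9 genes. Those of the 2 genes that rose most and the 2 that fell most are printed 5′ to 3′ in the direction of transcription. Capitals mark GGGAA or TTCCC, the core letters of an IKZF1 site on either strand. Windows are Blnk chr19:40994172-40994471 (minus strand, RefSeq start 314 bases inside the GENCODE gene), Syk chr13:52583187-52583486 (plus strand, RefSeq start 264 bases inside the GENCODE gene), Pik3ap1 chr19:41385053-41385352 (minus strand) and Plcg2 chr8:117498025-117498324 (plus strand).
Blnk: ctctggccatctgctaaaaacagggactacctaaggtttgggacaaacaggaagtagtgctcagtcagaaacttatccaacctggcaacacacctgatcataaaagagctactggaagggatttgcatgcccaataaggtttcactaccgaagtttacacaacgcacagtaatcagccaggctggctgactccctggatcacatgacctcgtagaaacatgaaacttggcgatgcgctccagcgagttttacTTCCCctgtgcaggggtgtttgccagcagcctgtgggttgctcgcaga
Syk: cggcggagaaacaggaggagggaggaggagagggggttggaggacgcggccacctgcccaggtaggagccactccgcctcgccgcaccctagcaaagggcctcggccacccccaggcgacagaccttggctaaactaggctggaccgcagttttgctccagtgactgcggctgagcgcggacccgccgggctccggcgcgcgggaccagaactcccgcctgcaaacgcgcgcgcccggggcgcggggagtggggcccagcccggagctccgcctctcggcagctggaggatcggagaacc
Pik3ap1: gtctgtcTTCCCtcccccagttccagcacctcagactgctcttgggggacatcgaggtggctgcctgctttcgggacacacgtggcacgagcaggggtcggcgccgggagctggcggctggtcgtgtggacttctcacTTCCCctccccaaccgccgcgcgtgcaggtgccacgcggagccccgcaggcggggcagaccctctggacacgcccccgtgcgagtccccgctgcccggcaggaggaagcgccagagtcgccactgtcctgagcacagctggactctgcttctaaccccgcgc
Plcg2: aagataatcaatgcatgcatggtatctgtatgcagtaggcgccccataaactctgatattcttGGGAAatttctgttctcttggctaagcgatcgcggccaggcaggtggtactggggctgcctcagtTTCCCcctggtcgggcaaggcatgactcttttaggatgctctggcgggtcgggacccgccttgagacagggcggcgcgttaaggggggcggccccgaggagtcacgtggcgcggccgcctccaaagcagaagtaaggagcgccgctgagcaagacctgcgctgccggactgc
The window of Blnk held 1 such core, that of Pik3ap1 2, that of Plcg2 2 and that of Syk 0. Of 32851 windows of this length, 62.7% held at least 1 and 27.1% at least 2. The shorter cores GGAA and GGGA (on the other strand, TTCC and TCCC), counted with overlaps and including those inside the longer core, numbered 8 in the window of Blnk, 4 in that of Syk, 12 in that of Pik3ap1 and 5 in that of Plcg2, with a median of 7 over all windows. These counts describe the letters in the windows and not binding. Bank1 and Btk each held 2 of the longer cores and Prkcb 0, and a second window of Syk, 13709 bases downstream of its GENCODE start, held 1.

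The genes began at very different levels. Since introns were counted, levels were divided by the length of the gene body for comparison between genes. At 0 h the order in CPM per kb was Pik3ap1 at 10.3, Plcg2 at 9.43, Btk at 3.49, Lyn at 2.76, Syk at 2.49, Blnk at 0.382 and Bank1 at 0.275, with Blk at 0.0139 and Prkcb at 0.000702. Neighbors in this order did not overlap between replicates, whereas at 2 h Lyn at 2.34 and Btk at 2.33 CPM per kb did. By 24 h the order of the first 3 was Syk at 14.5, Blnk at 7.81 and Lyn at 5.61 CPM per kb. Plcg2 at 2.71, Pik3ap1 at 2.65 and Btk at 2.49 CPM per kb lay close together, and Bank1 at 0.645, Blk at 0.0102 and Prkcb at 0.00106 CPM per kb kept the last places, again without overlap between neighbors. Blnk thus went from the sixth to the second place in this order.

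Blnk (ENSMUSG00000061132, chr19:40928927-40994535, minus strand, overlapping no other gene) encodes the adaptor that joins SYK to BTK and PLCG2. In replicates 1 and 2 its level was 25.2 and 24.9 CPM at 0 h, 25.7 and 24.0 CPM at 30 min, 14.9 and 14.2 CPM at 1 h and 9.55 and 9.32 CPM at 2 h. It then stood at 41.5 and 40.3 CPM at 6 h, 105 and 96.1 CPM at 12 h, 228 and 224 CPM at 15 h, 358 and 335 CPM at 18 h, 497 and 502 CPM at 21 h and 528 and 496 CPM at 24 h. The libraries at 1 h and 2 h were below, and those from 6 h on above, both libraries at 0 h. The fall was called at 2 h, at -1.41 on the log2 scale (SE 0.0654, adjusted p = 7.05e-14, edgeR), and the rise from 12 h, at 2.00 (SE 0.0519, adjusted p = 1.98e-18, edgeR). The SE and p-value at 12 h rest on the spread over all libraries and not on the wider spread at that time. Blnk rose 4.33-fold from 2 to 6 h and a further 12.5-fold from 6 to 24 h (adjusted p = 2.86e-16 and 2.12e-22, edgeR), and its level at 24 h was 54.3-fold that at 2 h.

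Bank1 (ENSMUSG00000037922, chr3:136053363-136326066, minus strand, overlapped by the antisense gene Gm31243) encodes an adaptor that binds LYN and the calcium channel of intracellular stores. It measured 74.8 and 75.4 CPM at 0 h, 71.1 and 72.0 CPM at 30 min, 71.7 and 71.6 CPM at 1 h and 81.8 and 81.9 CPM at 2 h. It was at 113 and 115 CPM at 6 h, 201 and 211 CPM at 12 h, 199 and 210 CPM at 15 h, 234 and 273 CPM at 18 h, 220 and 216 CPM at 21 h and 183 and 169 CPM at 24 h. All libraries from 2 h on lay above those at 0 h, and the highest values were at 18 h. The rise was called from 12 h, at 1.46 on the log2 scale (SE 0.0556, adjusted p = 1.27e-15, edgeR), was 1.75 at 18 h and 1.23 at 24 h. At 18 h, where the replicates stood furthest apart, leaving out 1 library at a time kept the call.

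Pik3ap1 (ENSMUSG00000025017, chr19:41272377-41385102, minus strand, overlapping no other gene) encodes BCAP, the adaptor that recruits phosphoinositide 3-kinase. Its level went down from 1163 and 1165 CPM at 0 h to 1010 and 1006 CPM at 30 min, 668 and 656 CPM at 1 h and 685 and 681 CPM at 2 h. It stood at 490.1 and 493 CPM at 6 h, 476 and 520 CPM at 12 h, 430 and 439 CPM at 15 h, 395 and 362 CPM at 18 h, 311 and 317 CPM at 21 h and 299 and 299 CPM at 24 h. Every library after 0 h lay below both at 0 h. At 30 min the difference of -0.21 on the log2 scale already had an adjusted p-value of 0.000821 (SE 0.0392, edgeR) but was under 2-fold, as it was at 1 h (-0.81) and 2 h (-0.77). The fall was called from 6 h, at -1.24 (SE 0.0399, adjusted p = 8.13e-17, edgeR), and the level at 24 h was 1.64-fold below that at 6 h, which is under 2-fold.

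Syk (ENSMUSG00000021457, chr13:52583173-52648792, plus strand, overlapping no other gene) encodes the kinase that docks on the receptor subunits. It measured 163 and 164 CPM at 0 h, 178 and 182 CPM at 30 min, 254 and 256 CPM at 1 h and 257 and 248 CPM at 2 h. It was at 369 and 368 CPM at 6 h, 476 and 494 CPM at 12 h, 605 and 603 CPM at 15 h, 673 and 608 CPM at 18 h, 793 and 848 CPM at 21 h and 954 and 953 CPM at 24 h. Every induced library was above both at 0 h. Before it was called, Syk was 1.56-fold above 0 h at 1 h (adjusted p = 3.86e-11, edgeR) and 1.55-fold at 2 h. The rise was called from 6 h, at 1.18 on the log2 scale (SE 0.0422, adjusted p = 5.39e-16, edgeR), and from 6 to 24 h Syk rose a further 2.59-fold (adjusted p = 1.72e-17, edgeR).

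Lyn (ENSMUSG00000042228, chr4:3678115-3813122, plus strand, overlapped by 4 genes on the other strand) encodes the main Src family kinase of B cells. It measured 371 and 376 CPM at 0 h, 360 and 364 CPM at 30 min, 300 and 298 CPM at 1 h and 317 and 315 CPM at 2 h. It was at 438 and 439 CPM at 6 h, 574 and 564 CPM at 12 h, 611 and 606 CPM at 15 h, 687 and 719 CPM at 18 h, 766 and 754 CPM at 21 h and 757 and 758 CPM at 24 h. The libraries at 30 min, 1 h and 2 h lay below those at 0 h and the later ones above. The difference of -0.32 on the log2 scale at 1 h (SE 0.0306, adjusted p = 1.58e-08, edgeR) was under 2-fold, and the rise was called at 21 h, at 1.03, and 24 h, at 1.02 (adjusted p = 5.53e-18, edgeR). Both calls were lost with library totals, at 0.79 and 0.76 on the log2 scale. Between 2 and 24 h Lyn rose 2.40-fold (adjusted p = 2.75e-19, edgeR), or 0.99 on the log2 scale when scaled by library totals.

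Btk (ENSMUSG00000031264, chrX:134542336-134583570, minus strand, overlapped by the pseudogene Gm15154 on the other strand) encodes the kinase that activates PLCG2. Its level was 145 and 143 CPM at 0 h, 135 and 134 CPM at 30 min, 125 and 124 CPM at 1 h, 96.4 and 95.6 CPM at 2 h and 69.8 and 71.7 CPM at 6 h. From there it was 75.2 and 82.0 CPM at 12 h, 85.3 and 86.6 CPM at 15 h, 92.1 and 88.2 CPM at 18 h, 102 and 101 CPM at 21 h and 101 and 104 CPM at 24 h. All induced libraries lay below those at 0 h, with the lowest at 6 h. The fall was called only at 6 h, at -1.02 on the log2 scale (SE 0.0407, adjusted p = 3.01e-15, edgeR), just past 2-fold. The level at 24 h was 1.45-fold that at 6 h (adjusted p = 1.81e-10, edgeR), which is under 2-fold, and at 24 h Btk stood at -0.49 against 0 h.

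Blk and Prkcb were near the limit of detection. Blk (ENSMUSG00000014453, chr14:63372836-63417037, minus strand), a Src family kinase gene, had 32 and 24 counts at 0 h, 18 and 31 counts at 30 min, 65 and 45 counts at 1 h, 65 and 69 counts at 2 h and 74 and 78 counts at 6 h. It had 39 and 30 counts at 12 h, 21 and 18 counts at 15 h, 20 and 19 counts at 18 h, and 13 and 19 counts at both 21 h and 24 h. The libraries at 2 and 6 h stood above all others in CPM, and those at 1 h, at 1.34 and 1.11 CPM, overlapped those at 12 h, at 1.12 and 0.748 CPM. Its rise from 0.616 ± 0.107 CPM at 0 h to 1.65 ± 0.0706 CPM at 2 h (SD, n = 2) was called at 2 h, at 1.41 on the log2 scale (SE 0.212, adjusted p = 7.13e-06, edgeR), and at 6 h, at 1.46. At 1 h it stood at 1.00 on the log2 scale, a 1.99-fold difference and so just under the threshold. From 6 to 24 h Blk fell 3.73-fold (adjusted p = 3.71e-07, edgeR), which left it at -0.44 against 0 h (SE 0.294, adjusted p = 0.19, edgeR).

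Prkcb (ENSMUSG00000052889, chr7:122288751-122634402, plus strand) had 5 to 20 counts in each library, or 0.134 to 0.567 CPM. It overlaps 8 annotated genes, 7 of them on its own strand, so that its counts are uncertain. The replicates at 24 h had 19 and 6 counts and spanned those at 0 h, which had 11 and 11. A change was not detectable at this depth (time-course adjusted p = 0.0846, edgeR, or 0.00663 without replicate 2 of 24 h), and the largest difference, 0.91 on the log2 scale at 18 h (SE 0.404, adjusted p = 0.046, edgeR), was under 2-fold.

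Plcg2 (ENSMUSG00000034330, chr8:117498291-117635142, plus strand, with the miRNA gene Gm27361 on the other strand) encodes phospholipase C gamma 2. It measured 1298 and 1285 CPM at 0 h, 1068 and 1064 CPM at 30 min, 677 and 658 CPM at 1 h, 579 and 569 CPM at 2 h and 531 and 518 CPM at 6 h. It was at 471 and 559 CPM at 12 h, 534 and 526 CPM at 15 h, 385 and 324 CPM at 18 h, 328 and 364 CPM at 21 h and 374 and 368 CPM at 24 h. Every induced library was below both at 0 h. The difference at 30 min was -0.28 on the log2 scale (SE 0.0657, adjusted p = 0.00585, edgeR), and the fall was called from 2 h, at -1.17 (SE 0.0667, adjusted p = 2.27e-12, edgeR). Most of it was in place by then, since the level from 2 to 6 h differed by -0.13 on the log2 scale (SE 0.0663, adjusted p = 0.116, edgeR) and that from 2 to 24 h by -0.63.

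**Figure D2:**
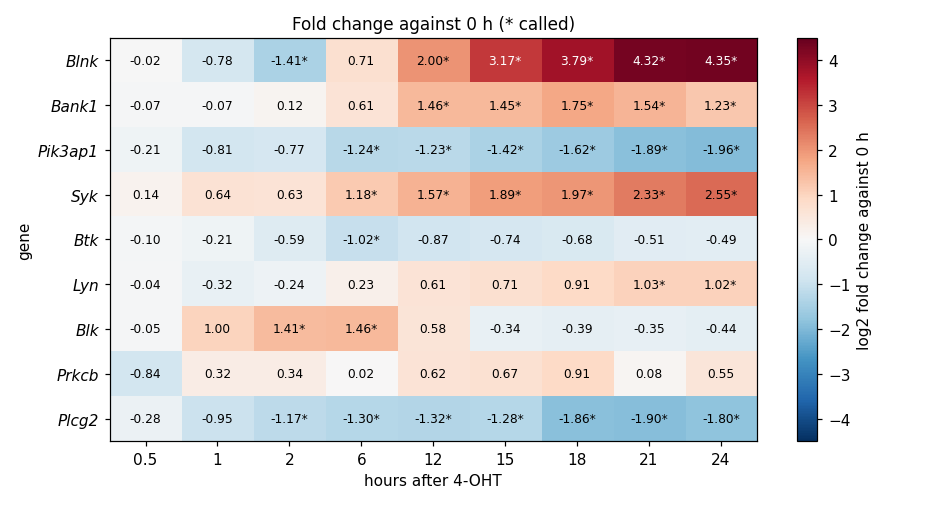
Log2 fold change of each gene (rows) against 0 h at each induced time point (columns, hours after 4-OHT), from edgeR; red is higher, blue lower, and a star marks a call. The first stars stand at 2 h in Blnk, Blk and Plcg2, and at 24 h Blnk reached 4.35 while Pik3ap1 stood at -1.96.

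The order of calls over the genes was as follows. At 30 min and at 1 h edgeR called 0 of 9 genes lower and 0 higher, where over all genes 0.41% were called lower and 0.0542% higher at 30 min, and 4.84% and 2.33% at 1 h. DESeq2 also called 0 at both. At an unadjusted p-value under 0.05 (edgeR), 3 were lower and 1 higher at 30 min, and 5 were lower and 2 higher at 1 h. The shares above do not apply to this looser cutoff, and the share of all genes that passed it was not computed. At 2 h 2 were called lower (Blnk and Plcg2) and 1 higher (Blk), against 6.91% and 6.25% of all genes. At 6 h 3 were called lower (Pik3ap1, Btk and Plcg2) and 2 higher (Syk and Blk), against 9.13% and 10.9%. From 12 h on the genes called lower were Pik3ap1 and Plcg2 at each time point, and Blnk, Bank1 and Syk were called higher at each, joined by Lyn at 21 and 24 h. At 24 h the counts were thus 2 lower and 4 higher, against 20.1% and 20% of all genes, and the median log2 fold change of the 9 genes was 0.55, against -0.011 for all genes. That median is the value of Prkcb and rests on its few counts, since it was -0.26 without replicate 1 of 24 h and 1.02 without replicate 2. The background shares at 12, 15, 18 and 21 h were 9.92%, 13.1%, 17.6% and 19.4% lower and 13.2%, 15.3%, 19.1% and 20.1% higher.

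The steps within the induced time course separated the genes further. Each difference is between induced libraries, but its test uses the spread estimated over all 20 libraries, those at 0 h included. From 30 min to 2 h Blnk fell 2.63-fold and Blk rose 2.74-fold (adjusted p = 1.58e-13 and 8.14e-06, edgeR), with 5.41% of all genes called lower and 5.4% higher in this step. The other 7 genes were not called in it, with Plcg2 at -0.89 on the log2 scale (adjusted p = 2.5e-10, edgeR). From 2 to 6 h Blnk was the 1 gene called, in a step with 3.26% of all genes called lower and 3.91% higher. From 6 to 24 h Blnk and Syk were called higher and Blk lower, against 10.9% and 12.8% of all genes. From 2 to 24 h Blnk, Bank1, Syk and Lyn were called higher and Pik3ap1 and Blk lower, against 16.2% and 16.6% of all genes.

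**Figure D3:**
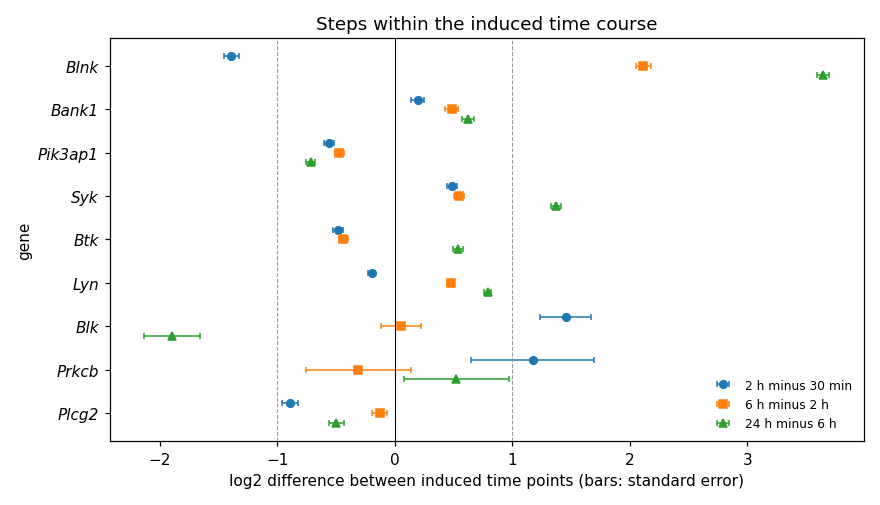
Log2 difference of each gene over 3 successive steps of the induced time course (circles 30 min to 2 h, squares 2 to 6 h, triangles 6 to 24 h), with bars for the standard error and dashed lines at a 2-fold change. Blnk turned from -1.39 in the first step to 2.12 in the second, while Pik3ap1 was negative in all 3.

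The time of half-maximal change was read from the mean log2 CPM by linear interpolation, as the first crossing of the midpoint between 0 h and the time point farthest from it. It was 0.883 h for Blk, 0.999 h for Plcg2 (1.24 and 1.14 h in the replicates taken singly), 1.81 h for Btk, 3.78 h for Pik3ap1, 7.48 h for Syk, 7.90 h for Bank1, 10.5 h for Lyn and 12.4 h for Blnk, whose early fall does not enter it. None is given for Prkcb, which was not called. On a linear CPM scale Plcg2 crossed at 0.81 h, Pik3ap1 at 0.90 h, Blk at 0.949 h and Btk at 1.6 h. Bank1 crossed at 9.27 h there, Lyn at 11.9 h, Syk at 13.8 h and Blnk at 16.1 h. The order among Blk, Plcg2, Btk and Pik3ap1, and that among Syk, Bank1 and Lyn, thus turns on the scale. Blnk, Syk, Bank1 and Lyn crossed later than Plcg2 and Btk on both scales.

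Patterns most like these were sought by Pearson's r of the mean log2 CPM over the 10 time points, among 12055 genes averaging at least 1 CPM (12056 for Blk and Prkcb). This is a likeness of shape that ignores size. Plcg2 was followed most closely by Vav1 (r = 0.993) and Slx1b. Blnk was most like Parp4 (r = 0.998) and Tet2, which were at 1.14 and 1.11 on the log2 scale at 24 h where Blnk was at 4.35. The closest were Ncoa3 (r = 0.998) and Prr14l for Syk, Bicd1 (r = 0.998) and Nod2 for Lyn, Hist1h2ai (r = 0.994) and Zfp52 for Bank1, and St3gal1 (r = 0.988) and Mrpl45 for Pik3ap1. Btk had less close matches in Zfp827 (r = 0.961) and Itih5, as had Blk in Rad1 (r = 0.975) and Aven and Prkcb in Dyrk3 (r = 0.920) and Hemk1.

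Blnk and Pik3ap1 lie on chromosome 19, 277.8 kb apart, and GENCODE M21 places 6 genes in the 456.2 kb from one end of Blnk to the other end of Pik3ap1, of which 5 were tested. Between them, Dntt, the terminal transferase gene, was called lower at 1 h, at -1.90 on the log2 scale (adjusted p = 8.5e-11, edgeR). Dntt was also called lower at 2 h and at 6 h, where it stood at -2.1. Blnk stood at -0.78 at 1 h, not called, was called lower at 2 h and stood at 0.71 at 6 h, not called. Dntt had 6.81 and 5.70 CPM at 0 h and a mean of 1.25 CPM at 2 h, which gave -2.32 on the log2 scale (SE 0.142, adjusted p = 7.26e-12, edgeR). At 24 h Dntt measured 4.15 and 3.72 CPM, or -0.67 on the log2 scale, where Blnk was at 4.35. Tll2 rose from 0.497 and 0.788 CPM to 2.24 and 2.09 CPM at 24 h (log2 fold change 1.75, adjusted p = 1.1e-06, edgeR). Tm9sf3 measured 215 and 217 CPM at 0 h and 190 and 192 CPM at 24 h, or -0.18 on the log2 scale. These 5 genes thus differed in direction at 24 h, with Blnk and Tll2 called higher and Pik3ap1 lower.

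**Figure D4:**
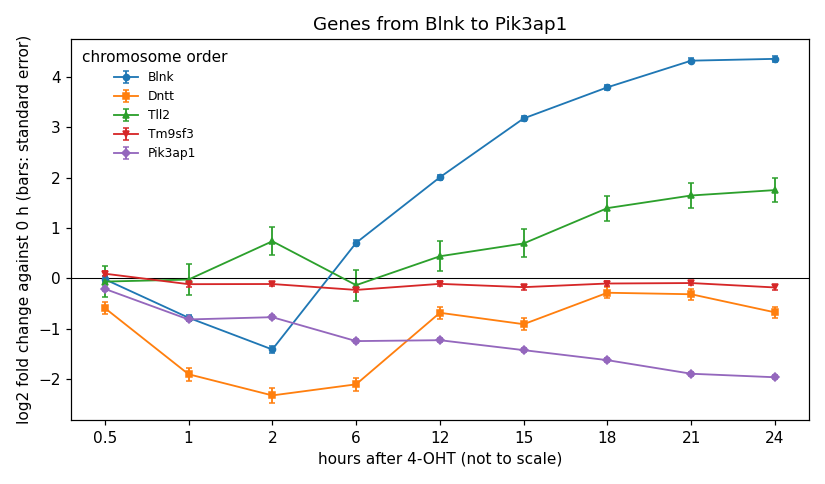
Log2 fold change against 0 h (bars, standard error) for the 5 tested genes from Blnk to Pik3ap1, in chromosome order in the legend, against hours after 4-OHT. Blnk and Dntt were both low at 2 h, at -1.41 and -2.32, and then parted, while Tm9sf3 stayed near 0.

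Around these genes, a list of 64 further genes of receptor-proximal signaling was examined, of which 61 were tested. At 2 h 10 of the 61 (16.4%) were called lower and 1 (1.64%) higher, against 6.91% and 6.25% of all genes, with a median log2 fold change of -0.14 against 0.026 for all genes. At 24 h 10 were lower (16.4%) and 16 higher (26.2%), against 20.1% and 20% of all genes, with a median of 0.45 against -0.011. At 30 min edgeR and DESeq2 each called 0 of the 61, of which 14 were lower and 12 higher at an unadjusted p-value under 0.05 (edgeR). The share of all genes under this unadjusted cutoff was not computed, so these counts cannot be set against a background. Among the falls called at 2 h, those with the largest fold changes were in Rasgrp3, a RAS exchange factor, at -2.69 on the log2 scale, Pag1, which recruits the inhibitor of Src kinases, at -1.94, and Lck, a Src family kinase, at -1.93. The 1 gene called higher at 2 h was Tec, a kinase of the same family as Btk. It went from 247 and 246 CPM at 0 h to 558 and 551 CPM at 2 h and 1679 and 1778 CPM at 24 h, which put it at 2.81 on the log2 scale (SE 0.0391, adjusted p = 2.12e-23, edgeR) where Btk stood at -0.49.

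At 24 h both receptor subunits were called higher, Cd79a at 1.12 and Cd79b at 2.29 on the log2 scale. The tested genes included 12 of inhibitory receptors, phosphatases, ligases and Dok adaptors. At 2 h 4 of these 12 were called lower (Ptpn6, Inpp5d, Dok1 and Dok2) and 0 higher, against 6.91% and 6.25% of all genes. Their log2 fold changes at 2 h ran from -1.73 to 0.83. Of 10 kinases and their regulators, 3 were called lower and 1 higher at 2 h. At 24 h 2 of the 12 were called lower and 5 higher, against 20.1% and 20% of all genes. The inhibitory Fc receptor Fcgr2b rose from 7.30 and 7.25 CPM at 0 h to 69.7 and 64.8 CPM at 24 h (log2 fold change 3.21, SE 0.0689), and the lipid phosphatase Inpp5d fell from 2014 and 2004 CPM to 662 and 674 CPM (log2 fold change -1.59, SE 0.0541). Pag1 fell from 925 and 943 CPM to 96.0 and 101 CPM at 24 h (-3.25), and Rasgrp1, at 0.539 CPM at 0 h, fell by 2.05 on the log2 scale. Nck2 had 0 and 1 counts at 0 h and 16 and 15 at 24 h, at least 6.68-fold higher than a floor of 3 counts in each library at 0 h. Plcg1, the paralog of Plcg2, was called higher at 24 h (1.32 on the log2 scale, adjusted p = 1.13e-14, edgeR), where Plcg2 was at -1.80.

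**Figure D5:**
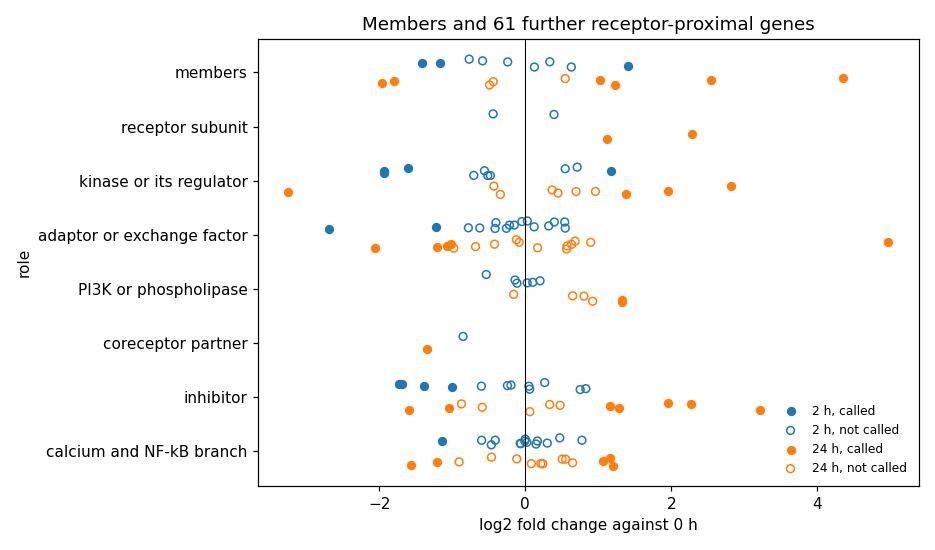
Log2 fold change against 0 h at 2 h (blue) and 24 h (orange) for the 9 genes (top row) and 61 further receptor-proximal genes by role; filled points were called and open points were not. At 2 h 10 further genes were called lower and 1 higher, and at 24 h 10 lower and 16 higher; the point farthest right is Nck2, whose position depends on the prior count, since it had 0 and 1 counts at 0 h.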

How the data were processed

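RNA bound to chromatin was sequenced in 20 libraries. Reads had been mapped to mm10 (GRCm38) by STAR within nf-core/rnaseq. The authors deposited raw counts per gene from featureCounts, introns included and without normalization. The library kit keeps strand, but the strand setting of the counting and the annotation release are not given in the sources used here, so that genes overlapping on either strand may share counts. The test was edgeR's quasi-likelihood test (version 4.0.16, R 4.3.3) on all 20 libraries, with TMM scaling and 1 coefficient per time point, over the 16601 genes that reached 10 counts in 2 or more libraries, and p-values were adjusted by Benjamini-Hochberg. Standard errors are the log2 fold change over the square root of the F statistic. DESeq2 1.42.0 gave an alternative test. Positions are from GENCODE M21. The reads carry no molecular identifiers, so the depth describes counting error only. The labels do not say that replicates are separate cultures, so p-values may measure technical spread. Only the edgeR calls of 2 h against 0 h were tried on simulated counts, and the other results were not.

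The genes, the wider list and the markers were chosen with earlier results of these data known, and no list is independent evidence. The text names all 9 genes, up to 3 called genes of the wider list in each direction at 2 and 24 h, the 2 genes of most similar pattern for each, and the genes from Blnk to Pik3ap1; the receptor subunits, Plcg1, Ptpn6, Dok1 and Dok2 were added after their values were seen. The results were recomputed with library totals, size factors of DESeq2, no or a stricter filter, DESeq2, a replicate block, only the 4 libraries compared, an adjusted p-value under 0.05, a test against a 2-fold change, and leaving out each library.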

Additional observations from a re-analysis of the deposited data

How the results depend on the processing

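Of 261 recounts of called genes under the alternatives, 255 stayed within 1.5 times the main count. The test against a 2-fold change called 1 gene lower and 0 higher at 2 h and 1 higher at 6 h, without Plcg2 and Blk at 2 h and Blk at 6 h. It also left 2 lower at 6 h, without Btk, and 3 higher at 21 and 24 h, without Lyn. By construction it is stricter. Library totals alone called 3 higher at 21 h and 2 at 24 h, since Lyn at both times and Bank1 at 24 h were then under 2-fold. From 2 to 24 h Bank1 (0.83 on the log2 scale) and Lyn (0.99) were also under 2-fold. Leaving out 1 library at a time gave 0 to 1 genes called higher at 1 h, because Blk was at 1.19 on the log2 scale without replicate 1 of 0 h and at 1.12 without replicate 2 of 1 h. With the replicate number as a block, 8 genes changed over the time course and no call moved. That count was 7 with library totals and 8 to 9 when 1 library was left out. The differences between replicates 1 and 2 had correlations from -0.625 to 0.418 over 45 pairs of time points, with a mean of 0.0195. Such a range of both signs cannot decide whether the replicate numbers pair libraries at some time points.

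Of 882 fold changes against 0 h, 10 changed sign, none of them called. Leaving out 1 library, Blnk at 30 min ran from -0.065 to 0.035 and Blk at 30 min from -0.34 to 0.16. Prkcb ran from -0.067 to 0.68 at 2 h, -0.032 to 0.081 at 6 h, -0.35 to 0.48 at 21 h and -0.57 to 1.21 at 24 h, and without replicate 1 of 24 h it was at -0.57. Its step from 2 to 6 h ran from -0.66 to 0.091, that from 6 to 24 h from -0.59 to 1.19 and that from 2 to 24 h from -0.90 to 0.88. Without a filter on low counts Prkcb was at -0.0049 at 6 h, and with library totals at -0.15 at 21 h and -0.056 from 2 to 24 h, where Btk was at -0.17. With 5 to 20 counts, the depth limits Prkcb most, and a filter of 10 counts in every library left it out. Of 27 half-maximal times read otherwise, those of Prkcb included, 13 moved by more than the spread between replicates. That spread came from the single-replicate readings, which were themselves among the 27. For those readings the count therefore cannot decide whether a time is stable.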
